A study of Homo sapiens with 8 samples.

Results

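Epithelial-to-mesenchymal transition (EMT) is the programme by which epithelial cells give up their junctions and take on a motile, mesenchymal state. It was followed here through 9 genes: the transcription factors ZEB1, ZEB2, SNAI1, SNAI2, TWIST1 and TWIST2, and the mesenchymal markers VIM, FN1 and S100A4. The genes were chosen by name, and each was read from the transcript cluster (the probe group that reports 1 gene) annotated with its symbol. All 9 were on the array with 1 cluster each, out of 17709 clusters with a gene symbol. RNA came from 4 tumours of SK-OV-3 cells with the pIND_BORA vector, which overexpresses BORA, and from 4 tumours of SK-OV-3 cells with the empty vector pIND_EV (EV). SK-OV-3 is a human ovarian cancer cell line, and all tumours grew in nude mice. The labels do not say how many animals, cell pools or clones stand behind a group, so p-values measure only the spread between these tumours, which may be technical. Whole tumours were measured, so fewer cells of a type and less RNA per cell cannot be told apart.

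SNAI1 and SNAI2 are zinc-finger repressors, ZEB1 and ZEB2 are zinc-finger and homeodomain repressors, and TWIST1 and TWIST2 are basic helix-loop-helix factors. The SNAIL and ZEB factors bind the E-box letters CAGGTG, or CACCTG on the other strand, in promoters of epithelial genes such as that of E-cadherin, and recruit corepressors there. VIM encodes vimentin, the intermediate filament of mesenchymal cells. FN1 encodes fibronectin, a matrix protein that binds integrins. S100A4 encodes a small calcium-binding protein linked to cell motility.

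The windows below are shown because they carry, or lack, the letters that the repressors read. Each holds the 250 bases before the gene's start in RefSeq (GRCh38.p14), 5′ to 3′ on the gene's strand. Among the 9 genes, 6 had such a window (ZEB1, ZEB2, TWIST2, VIM, FN1 and S100A4). SNAI1, SNAI2 and TWIST1 had none. Capitals mark the E-boxes in S100A4 and in the epithelial genes CRB3 and DSP, which encode the polarity protein Crumbs3 and desmoplakin. In VIM they mark a GC box (GGGCGG or CCGCCC), and in FN1 a cyclic AMP response element (TGACGTCA, the same on both strands).
VIM, chr10:17227991-17228240, plus strand: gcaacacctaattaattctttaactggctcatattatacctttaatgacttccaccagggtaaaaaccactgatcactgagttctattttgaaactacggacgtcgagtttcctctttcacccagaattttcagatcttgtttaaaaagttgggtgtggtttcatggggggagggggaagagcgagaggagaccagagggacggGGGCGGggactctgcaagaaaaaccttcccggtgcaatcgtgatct
FN1, chr2:215436069-215436318, minus strand: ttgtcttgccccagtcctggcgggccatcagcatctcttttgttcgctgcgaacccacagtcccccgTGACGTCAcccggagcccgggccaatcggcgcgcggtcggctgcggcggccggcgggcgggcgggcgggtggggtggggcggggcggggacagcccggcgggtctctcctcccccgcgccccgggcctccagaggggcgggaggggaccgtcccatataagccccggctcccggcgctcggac
S100A4, chr1:153545807-153546056, minus strand: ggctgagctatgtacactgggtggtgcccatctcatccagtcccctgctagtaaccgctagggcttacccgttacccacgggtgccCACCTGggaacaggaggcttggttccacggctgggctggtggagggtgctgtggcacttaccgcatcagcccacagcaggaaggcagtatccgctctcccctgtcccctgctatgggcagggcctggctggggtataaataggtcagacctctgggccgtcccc
CRB3, chr19:6464021-6464270, plus strand: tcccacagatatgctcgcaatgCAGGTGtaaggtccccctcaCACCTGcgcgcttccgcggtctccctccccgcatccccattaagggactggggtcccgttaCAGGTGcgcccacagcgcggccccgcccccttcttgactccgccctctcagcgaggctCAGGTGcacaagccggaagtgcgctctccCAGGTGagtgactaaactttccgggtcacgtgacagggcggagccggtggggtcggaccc
DSP, chr6:7541421-7541670, plus strand: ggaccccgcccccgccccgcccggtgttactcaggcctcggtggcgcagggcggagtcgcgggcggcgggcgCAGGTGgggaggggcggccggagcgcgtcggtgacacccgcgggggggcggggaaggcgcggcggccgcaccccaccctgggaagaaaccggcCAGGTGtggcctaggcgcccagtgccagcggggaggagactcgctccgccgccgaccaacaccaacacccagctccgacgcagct

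An E-box was present in 17.5% of 35116 windows of this length. The VIM and FN1 windows had 0 and that of S100A4 had 1, while the CRB3 window had 5, a number reached by 0.074% of all windows, and the DSP window had 2. Of 20 listed epithelial genes known as targets of these repressors, 12 had a window and 9 of the 12 had an E-box in at least 1 of their windows. Of 22 listed mesenchymal genes, 15 had a window and 2 of the 15 had one. Some genes had several windows. Counted by window, as for the 17.5%, an E-box was in 11 of 16 epithelial and 3 of 24 mesenchymal windows. The windows of ZEB2 and TWIST2 had none, and 2 of the 7 windows of ZEB1 had one. The lists were drawn up from known targets, and a match of letters is a description, not a binding site. The element marked in FN1 was found in 1.65% of windows and the GC box in 42.6%.

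The arrays carried the contrast that the labels state: the BORA transcript was at least 12.55 in BORA tumours and at most 7.32 in EV tumours, on the log2 scale of the deposited values. Of 10 listed markers of the ovarian carcinoma line 9 were measured. The means of 8 in BORA tumours and of all 9 in EV tumours exceeded the 95th percentile of negative controls on the array, which was 7.62 to 8.13 in BORA arrays and 7.82 to 8.24 in EV arrays and is called the background below. EPCAM, an epithelial adhesion molecule, was between 13.63 and 13.96 in BORA tumours and between 13.52 and 14.76 in EV tumours. EV replicate 1 stood apart: it correlated with the other arrays at 0.943 to 0.954 over all clusters, where the other 7 correlated with each other at 0.981 to 0.992. The mean level of 14 squamous epithelium markers was 5.14 to 5.47 in BORA tumours, 11.99 in EV replicate 1 and 5.38 to 5.60 in EV replicates 2 to 4. The 9 genes are therefore given over 8 tumours and over the 7 without EV replicate 1. Differences of other genes and lists are over 8 tumours where the 7 are not named.

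None of the 9 genes passed the test between BORA and EV tumours (0 of 9; limma with Benjamini-Hochberg adjustment over all 17709 clusters, threshold 0.05), over 8 tumours or over 7. The adjusted p ranged between 0.271 and 0.941 over 8 tumours and between 0.282 and 0.890 over 7. Over all clusters 0.102% passed over 8 tumours, all of them higher, and 0.514% over 7 (0.435% higher, 0.0791% lower). Genes with an unadjusted limma p under 0.05 are called nominally higher or lower in BORA tumours. VIM and TWIST1 were nominally higher over 8 tumours and FN1 and TWIST1 over 7, 2 of 9 each time, and 0 were nominally lower. Of all clusters, 14.5% had such a p over 8 tumours (7.37% higher, 7.17% lower) and 15.3% over 7 (7.7% higher, 7.62% lower). BORA and EV values overlapped for all 9 genes in both comparisons. Over all clusters, all BORA arrays lay above all EV arrays for 4.45% and below them for 4.91% with 8 tumours, and for 6.66% and 7.68% with 7.

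**Figure D1:**
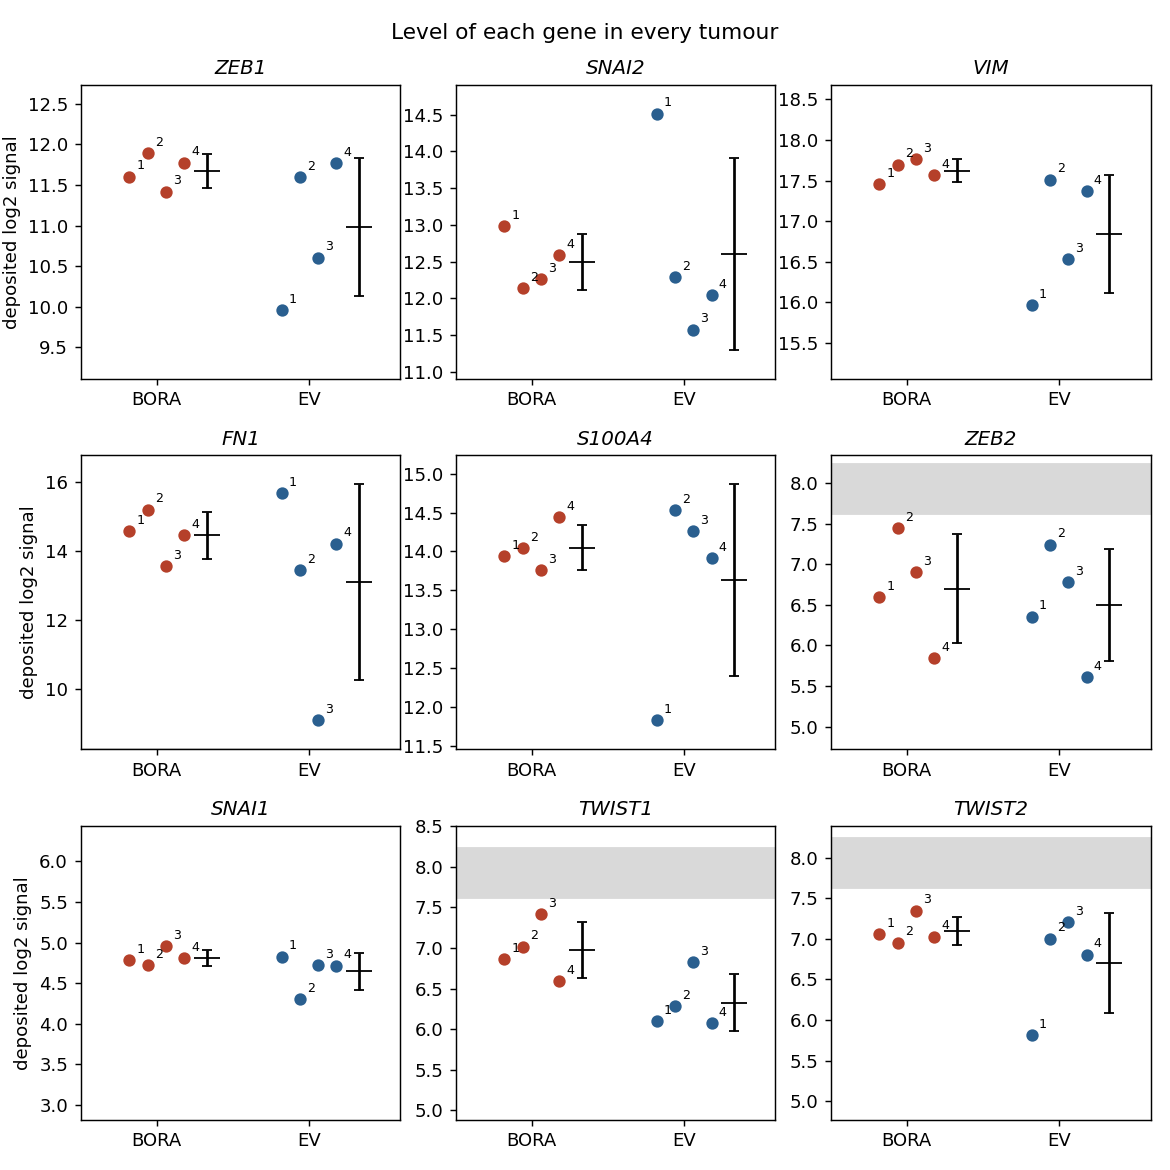
Deposited log2 signal (vertical axes, each of its own range) of the 9 genes in every tumour, BORA in red on the left and EV in blue on the right, with the replicate number beside each point. Black marks are the mean and SD of the 4 tumours, and the grey band spans the 95th percentile of the negative controls over the 8 arrays. ZEB2, SNAI1, TWIST1 and TWIST2 lie below the band in all tumours (for SNAI1 it is out of range), and FN1 in EV replicate 3 sits at 9.08.

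The signals of 5 genes lay above the background in every tumour: ZEB1, SNAI2, VIM, FN1 and S100A4. The other 4, ZEB2, SNAI1, TWIST1 and TWIST2, lay below it in every tumour. At this signal their levels cannot be told from background, and their differences have no sure size.

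VIM was at 17.45, 17.70, 17.77 and 17.57 in BORA replicates 1 to 4, against 15.97, 17.51, 16.53 and 17.37 in EV replicates 1 to 4. The BORA tumours lay close together, EV replicates 1 and 3 were lowest, and EV replicate 2 lay inside the BORA range. The mean was 17.62 ± 0.14 in BORA tumours and 16.85 ± 0.73 in EV tumours (SD, n = 4 each). The log2 difference was 0.77 (95% interval 0.066 to 1.48, limma adjusted p = 0.315), a 1.71-fold higher signal that did not pass. Without EV replicate 1 it was 0.48 (-0.027 to 0.99, limma adjusted p = 0.352). Leaving out EV replicate 3 as well, a setting chosen after the data were seen, left 0.18. As EV replicates 1 and 3 held the 2 lowest VIM values, leaving them out had to shrink the VIM difference. Its two-sided exact permutation p was 0.0571 (70 splits, of which the smallest possible p is 0.0286). VIM-AS1, the antisense neighbour of VIM, was below background, at 6.01 to 6.64 in BORA tumours and 6.43 to 6.81 in EV tumours; it was looked up after the data were seen.

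ZEB1 was at 11.60, 11.89, 11.42 and 11.77 in BORA replicates 1 to 4. In EV replicates 1 to 4 it was at 9.96, 11.59, 10.60 and 11.76. As for VIM, EV replicates 1 and 3 were the lowest of the 8 tumours, and EV replicates 2 and 4 lay inside the BORA range. The mean was 11.67 ± 0.21 in BORA tumours and 10.98 ± 0.85 in EV tumours (SD, n = 4 each). The log2 difference was 0.69 (-0.13 to 1.52, limma adjusted p = 0.420) over 8 tumours and 0.35 (-0.23 to 0.93, adjusted p = 0.566) over 7. With EV replicates 1 and 3 both left out, a setting chosen after the data were seen, it was -0.0086. As these were the 2 lowest ZEB1 values, leaving them out had to shrink the difference.

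FN1 was at 14.59, 15.21, 13.57 and 14.46 in BORA replicates 1 to 4. In EV replicates 1 to 4 it was at 15.68, 13.45, 9.08 and 14.22. The EV tumours held both the highest and the lowest FN1 signal of the series, 6.60 log2 units apart, and the BORA tumours lay between them, 1.64 units apart. Its SD was 0.67 among the BORA tumours, above that of 98.02% of the 7217 clusters whose mean exceeded background, and 2.84 among the EV tumours, above that of 99.68% of them. FN1 therefore varied widely among tumours of the same vector. The log2 difference was 1.35 (-1.26 to 3.96, limma adjusted p = 0.610) over 8 tumours and 2.21 (0.12 to 4.29, adjusted p = 0.303) over 7. EV replicate 3 had the lowest FN1 value, so leaving it out had to shrink the difference. Without it the difference was 0.0082 among the 8 tumours and 0.62 among the 7. Without EV replicate 4 the 7-tumour difference went to 3.19. The size thus depended on which EV tumours were kept.

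SNAI2 was at 12.99, 12.14, 12.26 and 12.59 in BORA replicates 1 to 4. In EV replicates 1 to 4 it was at 14.51, 12.29, 11.58 and 12.05. EV replicate 1 had the highest signal and EV replicate 3 the lowest. The log2 difference was -0.11 (-1.35 to 1.12, limma adjusted p = 0.941) over 8 tumours and 0.52 (-0.0038 to 1.05, adjusted p = 0.329) over 7, so its sign depended on EV replicate 1. In that tumour squamous markers were also high: KRT1, a keratin of differentiated epidermis, was at 4.20 to 4.95 in BORA tumours, 14.15 in EV replicate 1 and 4.41 to 4.45 in EV replicates 2 to 4. KRT14, a keratin of basal epithelium, was at 8.16 to 9.68 in BORA tumours, 15.44 in EV replicate 1 and 7.42 to 8.04 in EV replicates 2 to 4. Their part in the SNAI2 value was not tested.

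S100A4 was at 13.94, 14.05, 13.76 and 14.45 in BORA replicates 1 to 4. In EV replicates 1 to 4 it was at 11.82, 14.53, 14.27 and 13.92. EV replicate 1 was lowest, and the other 7 tumours lay between 13.76 and 14.53. BORA minus EV was 0.41 (-0.74 to 1.57, limma adjusted p = 0.731) over 8 tumours and -0.19 (-0.65 to 0.27, adjusted p = 0.715) over 7. Its sign, too, turned with EV replicate 1.

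Of the factors below background, TWIST1 was at 6.87, 7.02, 7.41 and 6.59 in BORA replicates 1 to 4, against 6.10, 6.29, 6.83 and 6.08 in EV replicates 1 to 4. It was higher in BORA tumours except that EV replicate 3 exceeded BORA replicate 4. BORA minus EV was 0.65 (0.14 to 1.16, limma adjusted p = 0.271) over 8 tumours and 0.57 (0.056 to 1.09, adjusted p = 0.282) over 7, and the exact permutation p was 0.0571. TWIST2 ranged between 6.95 and 7.35 in BORA tumours and between 5.82 and 7.21 in EV tumours. ZEB2 ranged between 5.84 and 7.45 in BORA tumours and between 5.61 and 7.24 in EV tumours. SNAI1 ranged between 4.72 and 4.95 in BORA tumours and between 4.30 and 4.83 in EV tumours. Their log2 differences over 8 tumours were 0.39 for TWIST2, 0.20 for ZEB2 and 0.17 for SNAI1, and over 7 they were 0.092 for TWIST2, 0.15 for ZEB2 and 0.23 for SNAI1, none past the threshold.

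**Figure D2:**
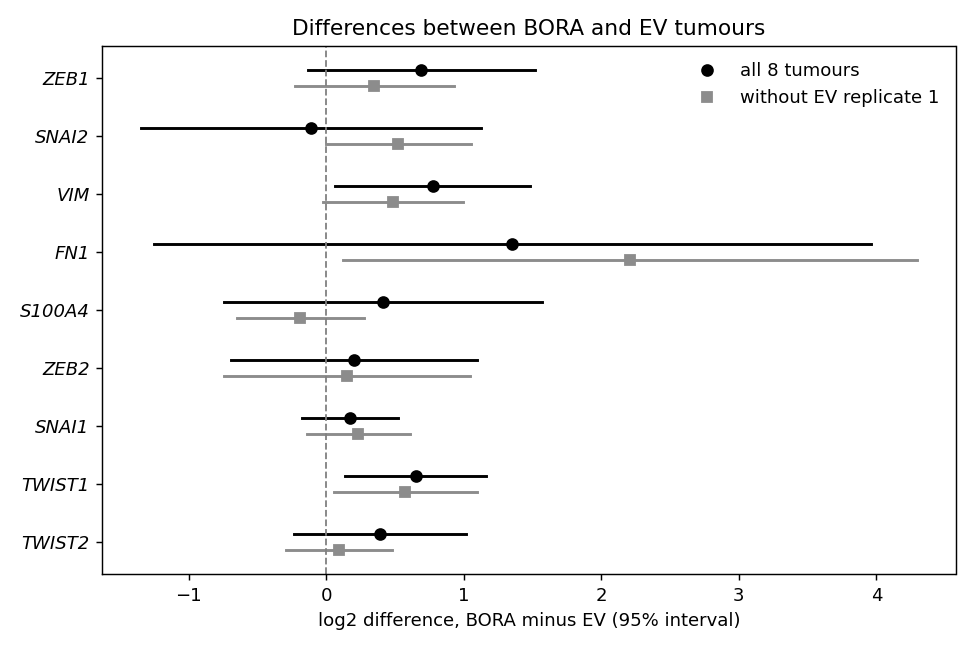
Log2 difference, BORA minus EV (horizontal axis), of the 9 genes with limma's 95% intervals, over all 8 tumours (black circles) and over the 7 without EV replicate 1 (grey squares). The dashed line marks 0. FN1 has the widest interval in both comparisons, and the points of SNAI2 and S100A4 lie on opposite sides of 0 in the 2 comparisons.

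The 5 genes above background had a smaller SD among BORA tumours than among EV tumours. It was 0.14 in BORA and 0.73 in EV for VIM, 0.21 in BORA and 0.85 in EV for ZEB1, and 0.67 in BORA and 2.84 in EV for FN1. For SNAI2 it was 0.38 in BORA and 1.31 in EV, and for S100A4 0.29 in BORA and 1.23 in EV. Without EV replicate 1 the EV SDs of SNAI2 (0.36) and S100A4 (0.31) were close to those of the BORA tumours, while those of VIM (0.53), ZEB1 (0.63) and FN1 (2.77) stayed above them. With EV replicate 1 included, larger SDs among the EV tumours were not particular to these genes. An SD of 0.34 (TWIST1 in BORA) exceeded that of 74.08% of the 7217 clusters above background. In EV tumours an SD of 0.35 (TWIST1) exceeded that of 52.75%. The share with a smaller SD was 14.12% in BORA and 86.82% in EV for VIM, and 34.77% and 90.58% for ZEB1. It was 80.86% and 96.65% for SNAI2, 61.48% and 95.97% for S100A4, and 98.02% and 99.68% for FN1. Without EV replicate 1 the general excess was not seen at a like SD. An SD of 0.39 in EV replicates 2 to 4 (TWIST1) exceeded that of 79.26%, and 0.38 in BORA tumours (SNAI2) that of 80.86%. The EV share was then 90.76% for VIM, 94.03% for ZEB1 and 99.93% for FN1, against 75.7% for SNAI2 and 65.36% for S100A4. The difference in spread was not tested.

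**Figure D3:**
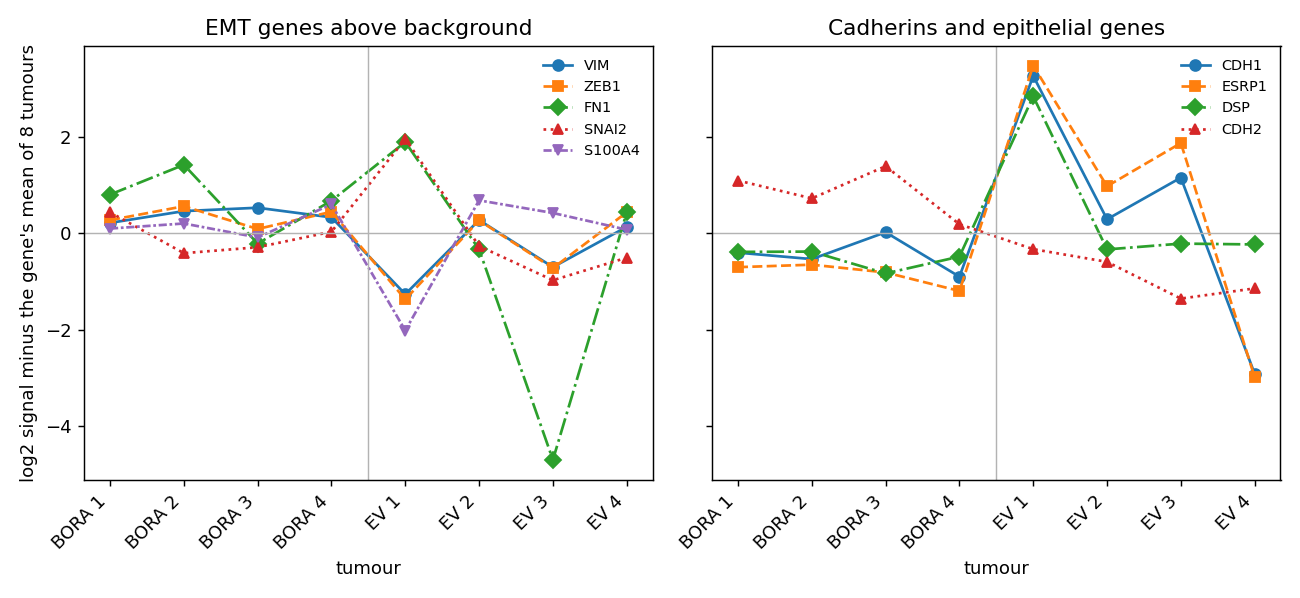
Log2 signal minus the gene's mean of the 8 tumours (vertical axis) in each tumour (horizontal axis), for the 5 genes above background on the left and for CDH1, ESRP1, DSP and CDH2 on the right. Lines only join points of a gene. VIM and ZEB1 are lowest in EV replicates 1 and 3, FN1 is lowest in EV replicate 3, and CDH1 and ESRP1 are highest in EV replicates 1 and 3 and lowest in EV replicate 4.

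CDH1, the E-cadherin gene and the classical target of these repressors, was at 8.80, 8.67, 9.23 and 8.30 in BORA replicates 1 to 4. In EV replicates 1 to 4 it was at 12.47, 9.50, 10.36 and 6.29. The EV tumours again lay on both sides of the BORA range: the tumours with the lowest VIM and ZEB1, EV replicates 1 and 3, had the highest CDH1. EV replicate 4 had the lowest CDH1, while its VIM and ZEB1 did not exceed the BORA range. The log2 difference was -0.90 (limma adjusted p = 0.706) over 8 tumours and 0.037 (adjusted p = 0.988) over 7. ESRP1, a splicing factor of epithelial cells that was chosen after its values were seen, was between 9.08 and 9.62 in BORA tumours and at 13.76, 11.25, 12.15 and 7.29 in EV replicates 1 to 4, the same order of EV tumours as for CDH1. DSP, whose window is printed above, was at 13.29 to 13.75 in BORA tumours, at 16.97 in EV replicate 1 and at 13.79 to 13.91 in EV replicates 2 to 4. CRB3, with 5 E-boxes, was between 9.47 and 9.94 in BORA tumours and between 9.45 and 10.72 in EV tumours.

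CDH2, the N-cadherin gene of mesenchymal cells, was at 7.84, 7.46, 8.13 and 6.93 in BORA replicates 1 to 4, against 6.41, 6.15, 5.38 and 5.59 in EV replicates 1 to 4. The groups did not overlap. It did not pass over 8 tumours (1.71, SE 0.30, limma adjusted p = 0.0994), though it did with array weights (1.69, adjusted p = 0.0428). It rose over 7 tumours (1.88, SE 0.28, limma adjusted p = 0.0194), where the call held on leaving out a further BORA replicate 1 or 4 or EV replicate 2 or 4, and was lost without BORA replicate 2 or 3 or EV replicate 3. Its mean lay below background in both groups, so the size of the difference is uncertain. Among the EV tumours, EV replicate 3 had the lowest CDH2 and EV replicate 1 the highest.

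miR-205 is known to repress ZEB1 and ZEB2, and its mature 5p arm in RefSeq (GRCh38.p14, chr1:209432166-209432187, plus strand) is shown with its seed, bases 2 to 8, in capitals.
hsa-miR-205-5p: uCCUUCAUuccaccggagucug
The cluster annotated MIR205, which lists the precursor and a second transcript and does not report the mature arm, was at 12.69 to 14.26 in BORA tumours. It was at 17.10 in EV replicate 1, where ZEB1 was lowest, and at 13.17 to 13.90 in EV replicates 2 to 4. In EV replicate 3, the tumour with the next lowest ZEB1, it was at 13.17, below its other EV values. MIR205 was looked up after the data were seen, and its log2 difference did not pass (-0.72 over 8 tumours and 0.16 over 7).

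Other genes of the programme were counted in lists. Of 18 measured EMT transcription factors outside the 9 genes, 0 passed over 8 or 7 tumours (limma). Nominally, 5 were higher over 8 tumours and 4 over 7, with 0 lower. Their median log2 difference was 0.60 over 8 tumours and 0.31 over 7, where the median of all clusters was -0.026 and -0.029. The median of the clusters above background was 0.11 over 8 tumours and 0.086 over 7, and after quantile normalization 0.0032 and -0.017. After the same normalization the median of the 18 factors was 0.47 over 8 tumours and 0.30 over 7. YAP1, a coactivator of TEAD factors, was at 11.22 to 11.32 in BORA tumours and at 10.28 to 10.86 in EV tumours without overlap, yet missed the threshold (0.67, adjusted p = 0.150; 0.57 over 7, adjusted p = 0.126). TEAD4, a partner of YAP1, was below background in both groups (1.02, adjusted p = 0.143, and 0.83 over 7, adjusted p = 0.0929). RUNX2, a factor of bone formation, was at 0.90 (adjusted p = 0.268, and 1.16 over 7, adjusted p = 0.0699). TCF3, which encodes the helix-loop-helix protein E2A, was at 0.47 (adjusted p = 0.306).

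The 9 genes themselves had a median log2 difference of 0.41 over 8 tumours and 0.35 over 7, with 8 of 9 above 0 each time. The gene below 0 was SNAI2 over 8 tumours and S100A4 over 7. Those above 0 included ZEB2, SNAI1, TWIST1 and TWIST2, whose signals lay below background. Of all clusters 46.6% were above 0 over 8 tumours and 46.1% over 7. Of the clusters above background 64.6% were above 0 over 8 tumours, and 50.44% after quantile normalization. Each of the 9 genes kept the sign of its 8-tumour log2 difference after quantile normalization. Of 21 measured mesenchymal genes, 0 passed over 8 tumours (limma; 6 nominally higher, 2 nominally lower). Over 7, 2 rose, CDH2 and GNG11, a G protein gamma subunit, and 0 fell. The median was 0.38 over 8 tumours and 0.22 over 7. GNG11 was at 9.39 to 10.13 in BORA tumours, at 7.15 in EV replicate 1 and at 8.51 to 8.85 in EV replicates 2 to 4. Its log2 difference over 7 was 1.05 (SE 0.20), with an adjusted p of 0.04996 in limma, just inside the threshold. The call held on leaving out BORA replicate 4 and was lost on leaving out any of the other 6. TGFBI, a matrix protein induced by TGF-beta, was at 14.44 to 15.15 in BORA tumours and at 11.68 to 13.67 in EV tumours without overlap (1.93, adjusted p = 0.151; 1.57 over 7, adjusted p = 0.0830). ITGA5, the alpha chain of the fibronectin receptor, was at 12.62 to 14.25 in BORA tumours and at 11.08 to 13.43 in EV tumours (1.53, adjusted p = 0.246).

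Epithelial genes did not pass either. Of 20 adhesion and polarity genes known to be repressed by these factors, 0 passed in either comparison (limma), and 15 were below 0 in both, with a median of -0.28 over 8 tumours and -0.23 over 7. Nominally 1 was higher and 1 lower over 8 tumours, and 1 higher and 2 lower over 7. CLDN4, a tight junction claudin, was at 7.77 to 8.98 in BORA tumours and at 8.47 to 9.92 in EV tumours (-0.94, adjusted p = 0.282; -1.24 over 7, adjusted p = 0.0705). OCLN, occludin of the same junction, was at -0.43 (adjusted p = 0.453; -0.63 over 7, adjusted p = 0.189). PATJ, a polarity scaffold, was at -0.45 (adjusted p = 0.361). MARVELD3, a tight junction protein, was below background in both groups and at -0.31 (adjusted p = 0.396). MUC1, a membrane mucin, went the other way, at 1.59 (adjusted p = 0.275). Of 12 measured factors of the epithelial state 0 passed in limma, with 1 nominally higher and 1 nominally lower over 8 tumours and 1 and 0 over 7. Their median was -0.42 over 8 tumours and 0.041 over 7, so its sign turned with EV replicate 1. ESRP1, a member of this list, passed over 7 tumours when EV replicate 4, its lowest tumour, was left out as well (-2.27, limma adjusted p = 0.00386). ELF5, an ETS factor of glandular epithelium, was at 1.57 (adjusted p = 0.244), below background in both groups. ELF3, an epithelial ETS factor, was at 0.81 (adjusted p = 0.412). GRHL2, OVOL1 and OVOL2, factors that oppose ZEB1, were below background in both groups, at -0.55, -0.55 and -0.40.

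**Figure D4:**
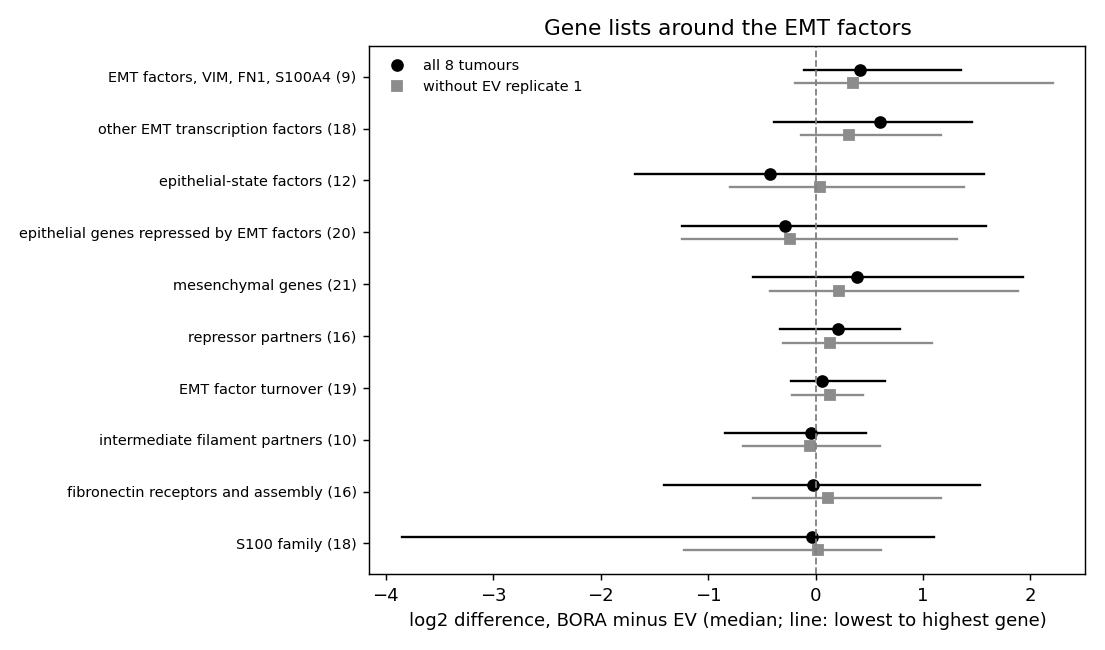
Log2 difference, BORA minus EV (horizontal axis), for the gene lists, with the number of measured genes in brackets. Points are medians and lines run between the lowest and highest gene, over all 8 tumours (black circles) and over the 7 without EV replicate 1 (grey squares). The medians of the other EMT transcription factors (0.60 and 0.31) and the mesenchymal genes (0.38 and 0.22) lie above 0 in both comparisons, and that of the epithelial-state factors changes side.

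The corepressors and chromatin enzymes that these factors recruit gave 0 of 16 past the threshold in limma, with 3 nominally higher and 0 nominally lower over 8 tumours and 2 and 0 over 7. Their median was 0.20 over 8 tumours and 0.14 over 7. AJUBA, a LIM protein that bridges SNAIL factors to their corepressors, was at 8.84 to 9.36 in BORA tumours, at 9.21 in EV replicate 1 and at 7.58 to 8.26 in EV replicates 2 to 4 (0.79, adjusted p = 0.295; 1.08 over 7, adjusted p = 0.0530). SIN3A, a corepressor scaffold, was at 0.40 (adjusted p = 0.340), and CTBP2, the corepressor of ZEB1, at 0.50 (adjusted p = 0.380). HDAC2, a histone deacetylase, was at 0.077 (adjusted p = 0.926) over 8 tumours and at -0.26 (adjusted p = 0.511) over 7. KAT5, a histone acetyltransferase, was below background and at 0.75 (adjusted p = 0.169). Of 19 measured genes that set the turnover of the EMT factors 0 passed in limma, with 2 nominally higher and 0 nominally lower over 8 tumours and 1 and 0 over 7. Their median was 0.064 over 8 tumours and 0.13 over 7. FBXL14, a ubiquitin ligase subunit for SNAI1, was at 0.59 (adjusted p = 0.298), PRKD1, a kinase that phosphorylates SNAI1, at 0.43 (adjusted p = 0.317) and ATM, a kinase that phosphorylates ZEB1, at 0.64 (adjusted p = 0.469). FBXL5 and FBXO11, 2 more ubiquitin ligase subunits for SNAI1, were at 0.21 and 0.20, and SIAH2, a ubiquitin ligase, at 0.19.

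Partners of the markers were counted too. Of 10 measured intermediate filament genes and linkers 0 passed in limma (median -0.047 over 8 tumours and -0.051 over 7). Nominally 2 were higher and 1 lower in both comparisons. DES, which encodes desmin of muscle, was below background, LMNA, the nuclear lamin A gene, was at 0.47 (adjusted p = 0.329), PLEC, the plectin linker of vimentin, at 0.44 (adjusted p = 0.335), and SYNM, synemin, at -0.18, below background. Of 16 measured fibronectin receptors and assembly genes 0 passed in limma (median -0.024 and 0.12 over 8 and 7 tumours), with 4 nominally higher and 1 nominally lower in both. TNS3, a tensin at fibronectin adhesions, was at 8.30 to 8.56 in BORA tumours and at 6.79 to 8.27 in EV tumours (0.81, adjusted p = 0.263). MAGED2 was at 9.68 to 9.88 in BORA tumours and at 8.75 to 9.45 in EV tumours (0.59, adjusted p = 0.218). It is a MAGE-family gene and not a fibronectin receptor, yet it was on the list and is among the 4 nominally higher genes. ITGA8, an integrin alpha chain, was below background.

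Of 18 S100 genes besides S100A4 0 passed in limma (median -0.037 over 8 tumours and 0.023 over 7). Nominally 1 was higher and 0 lower over 8 tumours, and 1 and 1 over 7. S100A13 was at 11.48 to 12.52 in BORA tumours and, like S100A4, lowest in EV replicate 1, at 9.34, with 10.91 to 11.51 in EV replicates 2 to 4. Its log2 difference was 1.10 (adjusted p = 0.321) over 8 tumours and 0.61 (adjusted p = 0.287) over 7. S100A6 was at 14.49 to 15.59 in BORA tumours and at 13.97 to 14.99 in EV tumours (0.48, adjusted p = 0.449). The inflammatory and squamous genes S100A8 and S100A9 went the opposite way to S100A4 in EV replicate 1. S100A8 was at most 3.5 in BORA tumours, 15.03 in EV replicate 1 and at most 5.96 in EV replicates 2 to 4. S100A9 was at most 4.82 in BORA tumours, 14.51 in EV replicate 1 and at most 5.11 in EV replicates 2 to 4. S100A2, a calcium-binding protein of basal epithelium, was at 14.65 to 15.40 in BORA tumours, at 16.94 in EV replicate 1 and at 15.34 to 15.64 in EV replicates 2 to 4.

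Markers of host-type cells were read with human probes and were mostly dim. Means above background were found for 4 of 11 fibroblast markers in BORA tumours and 4 in EV tumours, for 3 and 1 of 10 endothelial markers, and for 2 and 3 of 10 leukocyte markers. The mean level of the fibroblast markers was 7.71 to 8.0 in BORA tumours and 7.29 to 8.02 in EV tumours. That of the endothelial markers was 6.38 to 6.69 in BORA tumours and 6.10 to 6.60 in EV tumours. That of the leukocyte markers was 6.58 to 7.04 in BORA tumours and 6.65 to 7.76 in EV tumours. None of these markers passed over 8 tumours in limma, where 0 fibroblast, 2 endothelial and 0 leukocyte markers were nominally higher and 2, 1 and 5 nominally lower. The endothelial adhesion gene PECAM1 passed over 8 tumours when EV replicate 4 was left out (1.89, limma adjusted p = 0.0493). Of the 10 endothelial markers 3 were above 0 and 7 below 0 in both comparisons. Their median log2 difference was -0.24 over 8 tumours and -0.16 over 7. Over 7, PTPRC, the CD45 gene, fell to 9.68 to 10.96 in BORA tumours, against 12.19 to 12.94 in EV replicates 2 to 4 (log2 difference -2.07, SE 0.31, limma adjusted p = 0.0194), and it was at 6.91 in EV replicate 1, below every BORA tumour. The PTPRC call was lost on leaving out BORA replicate 2 or 4. The part of such cells in the VIM, FN1 or ZEB1 values was not tested.

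The clusters most like each gene above background were ranked by Pearson's r over the arrays, among 7217 clusters above background. The points share their arrays and groups, and the values are descriptions. For VIM over 8 tumours these were PDP1, a mitochondrial phosphatase (r = 0.991), RAB6A, a Golgi GTPase (0.988), and COX7A2, a respiratory chain subunit (0.975). RAB6A (0.987) and PDP1 (0.975) were also among its top 3 over 7. Without EV replicate 3 the r over 6 was 0.943 for RAB6A and 0.771 for PDP1. For ZEB1 over 8 they were LRRC17 (0.985), VEGFC, a lymphatic growth factor (0.983), and ACSL5, an acyl-CoA synthetase (0.980). Over 7 tumours FN1 was among the top 3 for ZEB1 and ZEB1 among the top 3 for FN1 (r = 0.976), and without EV replicate 3 this r was 0.787 over 6. For FN1 over 8 they were SUGT1 (0.966), STN1 (0.947) and CHFR (0.942), and the r of STN1 was 0.493 without EV replicate 3. For SNAI2 over 8 they were FAT2, an atypical cadherin of squamous epithelium (0.966), GRN, progranulin (0.963), and ARID5B (0.961). For S100A4 over 8 they were ENY2 (0.980), E2F5 (0.973) and PNMA1 (0.962). None of the top 3 of SNAI2 or S100A4 over 8 tumours was among their top 3 over 7.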

How the data were processed

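RNA from 8 tumours was measured on Affymetrix arrays, 1 array per tumour, grouped by the sample labels. The authors deposited 1 value per probe set and array, read here as log2 signal because of its range, the log base being unstated. Affymetrix Expression Console was used, per the submitters' processing notes; the sources used here give neither its version nor the background correction and normalization. The series text names another array design than the row identifiers. Of 24351 rows, 2903 were controls, 17709 had 1 gene symbol and 3739 were unnamed here.

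Differences (BORA minus EV) came from limma fits (lmFit, eBayes) without covariates, filters or further normalization over the 17709 clusters, with Benjamini-Hochberg adjustment over all of them, over 8 arrays and over 7. The number of arrays limits the precision. Background was the 95th percentile of 612 negative controls per array, averaged over a group's arrays for group means. Where a gene has several clusters the brightest was used. The 9 genes and the 14 gene lists (214 further genes, 198 measured, the other 16 not analysed here) were chosen with earlier results of these data known. Named list genes were the up to 4 with the smallest p in each comparison, those past the threshold, and CDH1 and CDH2; BORA, EPCAM, KRT1, KRT14, DSP, CRB3, ESRP1, VIM-AS1 and MIR205 were chosen after their values were seen. Over the 17709 clusters same-numbered arrays did not deviate together (r between -0.11 and 0.071), so the replicate number was no block. For ZEB2 and TWIST1, both below background, the replicates stood in the same order in BORA and EV tumours.

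The alternatives were a replicate block, quantile normalization, median centring, an intensity trend, array weights, 2 filters on dim clusters, all rows, no moderation, other thresholds, averaging clusters and leaving out each array; the exact permutation test and leaving out EV replicates 1 and 3 together were added after the data were seen. The steps were tested on simulated data. R 4.3.3 and limma 3.58.1 were used.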

Additional observations from a re-analysis of the deposited data

Results flagged for a closer look

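In groups of 4 tumours, a tumour was singled out where its gap to the nearest other one exceeded 0.83 of the group's range (Dixon's test), which chance gives in about 5% of groups. Of 126 groups tested (the 9 genes and the other named genes, BORA and EV tumours apart), 7 were singled out, near that share. None of them were for the 9 genes. KRT1, KRT14, DSP and CRB3 were chosen after their values were seen, so the 5% does not apply to them. EV replicate 1 was high for S100A9 (14.51), KRT1 (14.15), KRT14 (15.44) and DSP (16.97), and low for PTPRC (6.91). BORA replicate 2 was high for FBXL5 (10.79), and BORA replicate 4 was high for CRB3 (9.94).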

How the results depend on the processing

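The count of 0 of the 9 genes past the threshold held over 8 and over 7 tumours under every alternative run, thresholds of 0.1 and 0.01 included. Over 8 tumours 161 of 172 recomputed log2 differences of the 9 genes kept their sign, and over 7 tumours 141 of 146. With array weights ZEB2 was at -0.017, SNAI2 at 0.22 and S100A4 at -0.066 over 8 tumours, and ZEB2 at -0.056 over 7. Leaving out 1 array gave -0.095 to 0.49 for ZEB2, -0.45 to 0.52 for SNAI2 and -0.19 to 0.71 for S100A4 over 8, and -0.0086 to 0.57 for ZEB1, -0.31 to 0.50 for ZEB2 and -0.0079 to 0.19 for TWIST2 over 7. Without EV replicates 1 and 3, ZEB1 was at -0.0086, SNAI2 at 0.33, S100A4 at -0.17 and VIM at 0.18. On leaving out 1 array VIM was at 0.48 to 1.00 over 8 tumours and 0.18 to 0.67 over 7, and FN1 at 0.0082 to 2.21 over 8 and 0.62 to 3.19 over 7. Among the genes of the other lists 0 passed over 8 tumours, and 0 to 3 on leaving out 1 array, the 3 without EV replicate 1; over 7 tumours 3 passed, 1 of them among clusters above background, and 0 to 8 on leaving out 1 further array, the 8 without EV replicate 4. Over 7 tumours GNG11 passed only with the intensity trend, with array weights, among clusters above the median and without BORA replicate 4, beside the setting reported. With the replicate block CDH2 and GNG11 lost their calls over 7 tumours and PTPRC kept its call. TGFBI (1.66, limma adjusted p = 0.0431) gained one, as did the endothelial genes CDH5 (1.90, 0.0216) and PECAM1 (1.42, 0.0396). Without the block 7 of the 10 endothelial markers were below 0 over 7 tumours. PECAM1 also passed over 7 tumours with array weights and without EV replicate 4, and CDH5 without EV replicate 2. AJUBA passed with the trend, with array weights and without EV replicate 4. Without EV replicate 4, ESRP1 (-2.27, limma adjusted p = 0.00386), S100A14 (-1.29, 0.0439), CD163 (-1.71, 0.0294) and PAX8 (1.02, 0.0466) passed over 7 tumours too. KRT14 passed without BORA replicate 3 (1.66, 0.0273) and TNC without EV replicate 2 (1.66, 0.0453). Of the 14 squamous markers, which include KRT14, 4 were above 0 and 10 below 0 over 7 tumours, with a median of -0.15. Over all clusters 18 rose and 0 fell over 8 tumours, against 43 and 5 with array weights, 9 and 0 among clusters above background, 1 and 0 without moderation, and 1 to 77 risen on leaving out 1 array. Over 7 tumours 77 rose and 14 fell, against 46 and 15 with median centring, 34 and 6 among clusters above background, 0 and 0 without moderation, and 24 to 106 risen on leaving out 1 array. The cause of these shifts was not tested. With the replicate number as a block 0 of the 9 genes passed over 8 or 7 tumours, and the count over all clusters went to 1 risen and 0 fallen with the block, against 18 and 0 without it (8 tumours), and to 74 and 5, against 77 and 14 (7 tumours). In 1 of 4 BORA arrays the best-matching EV array had the same number.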
